A study of Mus musculus with 2 samples.

Results

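Leukocytes other than Kupffer cells were sought among fixed liver cells that had been sorted mainly to study hepatocytes. Male p16-Tom mice, heterozygous on a C57BL/6 background, carry a tamoxifen-dependent Cre recombinase (CreERT2) expressed from the p16Ink4a gene. They also carry R26-CAG-LSL-tdTomato-WPRE, a red fluorescent reporter that Cre switches on. Tamoxifen thus marks permanently the cells that transcribe p16Ink4a at that time. Both groups came from such mice given carbon tetrachloride (CCl4), a hepatotoxin that causes fibrosis, for 4 weeks together with tamoxifen, and no untreated mice were analysed here. The liver was fixed before it was dissociated, cells stained by both a DNA dye and a dye of mitochondria were split by sorting into reporter-negative (Tom-) and reporter-positive (Tom+) fractions, which the labels call p16low (Tom-) and p16high (Tom+) hepatocytes, and each fraction gave 1 library. The age and the number of the mice are not given in the sources used here, cells carry no animal label, and with 1 library per group nothing below is a test between Tom+ and Tom-: intervals are exact 95% intervals that cover counting error only.

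The 250 cells described here were chosen by their own counts, out of 39559 barcodes. Cells had to hold between 1000 and 4500 detected genes, at most 5% of their unique molecular identifiers (UMIs, each counting 1 captured molecule) in mitochondrial genes, and at most 1 UMI in all of the Kupffer cell genes Clec4f, Cd5l and Vsig4. These limits left 4952 cells. The 250 with the highest share of UMIs in 4 genes of leukocytes (Ptprc, Coro1a, Laptm5 and Cd52) were taken from both libraries together, 158 from the Tom- library and 92 from the Tom+ library. They made up 5.23% (4.46 to 6.08) of the Tom- cells within the limits and 4.77% (3.86 to 5.81) of the Tom+ cells, so the intervals overlapped. Each library had been sorted by reporter and by dyes, and its share of leukocytes describes the sorted cells, not the liver.

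Leukocytes reach the liver through the sinusoids, the wide capillaries between plates of hepatocytes. Myeloid cells include neutrophils, which carry antimicrobial granules and arrive early after injury, monocytes and the macrophages that develop from them, and dendritic cells, which present antigen to T cells. T cells recognise peptides through the T cell receptor and its CD3 chains, natural killer (NK) cells kill through granzymes and perforin, and B cells recognise antigen through the B cell receptor, whose signalling chains are Cd79a and Cd79b. In fibrotic liver, macrophages that express Gpnmb and Trem2 gather at scars, and some of the signals that stellate cells respond to come from leukocytes.

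The members were shallow. The Tom- members held 402326 UMIs in all, with a median of 2122 per cell, and the Tom+ members held 204719, with a median of 1946.5. The other cells within the limits had medians of 7387.5 and 8937.5 UMIs, and the cells under the study's own limits, which begin at 2000 genes, had medians of 26694 and 36075. Of the 250 members, 28 lay within the study's limits on genes, UMIs and mitochondrial share. The study then also removed clusters with low gene counts or with Ptprc, Dcn or Pecam1. That step was not repeated here, so cells within these limits need not have been kept by the study. A barcode sequence occurring in both libraries was found 503 times, 6 members carried such a sequence, and none of these sequences belonged to a member in both libraries.

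The label was checked against genes that the rule did not use. Among the 4 rule genes, Ptprc (the CD45 phosphatase of all leukocytes) gave 403 UMIs in 198 members, Coro1a, an actin regulator, 416 in 197, Laptm5, a lysosomal membrane protein, 220 in 129, and Cd52, a small surface glycoprotein, 160 in 103. These values chose the cells and are given as description only. The median member held 4 UMIs of the 4 genes together, 41 members held 2, 67 held 3 and the highest held 22. The last cell inside the rule had 2 such UMIs of 1953 (1024 CPM, that is, UMIs of the genes per 1000000 UMIs) and the first cell outside it had 4 of 3947 (1013 CPM), while the highest member reached 5089 CPM. Of the 4702 cells not taken, 4076 (86.7%) had no UMI of the 4 genes.

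Lists of 10 marker genes for each of 4 lineages were then used to place the members. A cell was assigned to the lineage with the most distinct markers detected, provided that there were at least 2 and more than for any other lineage. Of the 250 members, 87 (34.8%) were called myeloid-like, 70 (28.0%) B-like, 39 (15.6%) T-like and 10 (4.00%) NK-like, 5 had equal evidence for more than 1 lineage, and 39 could not be assigned. Genes outside the rule thus placed 206 members in a leukocyte lineage, where the same lists called 17.4% (Tom-) and 10.7% (Tom+) of the cells not taken. The myeloid list does not separate Kupffer cells from other macrophages, and 38 of the 87 myeloid-like cells held the 1 Kupffer UMI allowed, as did 28 of the 70 B-like cells. A call is a range of a per-cell count rather than a clean boundary: 19 of the myeloid-like cells, 13 of the T-like, 1 of the NK-like and 5 of the B-like rested on exactly 2 markers. No marker of another lineage was detected in 74 of the 87 myeloid-like cells and 44 of the 70 B-like cells. The same held for 19 of the 39 T-like cells and 4 of the 10 NK-like cells. The T and NK lists are not fully apart: 14 of the 39 T-like cells held UMIs of the NK list, which includes the granzyme gene Gzmb.

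Both libraries held the same 4 lineages. In the Tom- library 50 members were myeloid-like, 43 B-like, 24 T-like, 8 NK-like, 3 mixed and 30 unassigned. In the Tom+ library the numbers were 37, 27, 15, 2, 2 and 9. The intervals of each lineage's share overlapped between the libraries.

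**Figure D1:**
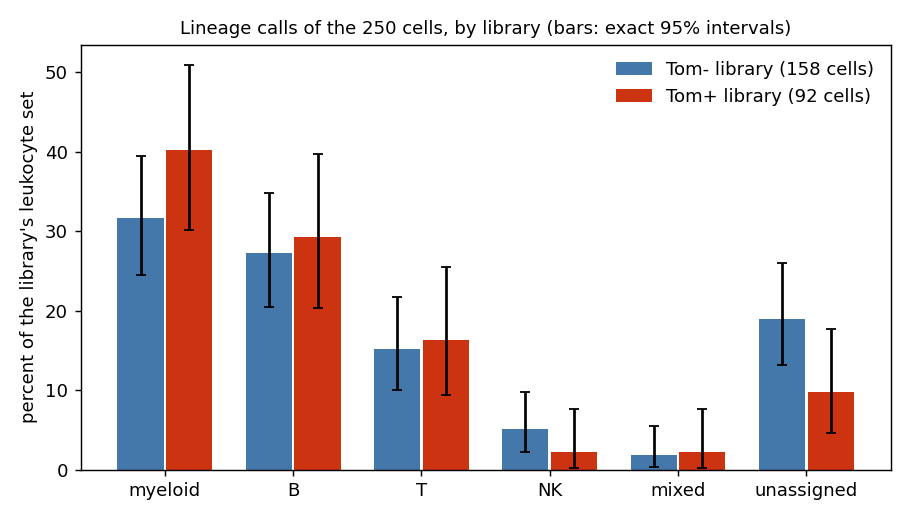
Lineage calls of the 250 leukocytes as a percentage of each library's set (y axis), for the Tom- library (blue, 158 cells) and the Tom+ library (red, 92 cells), with exact Clopper-Pearson 95% intervals. Myeloid-like and B-like cells were the most frequent calls in both libraries, and the intervals overlap in every category.

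Clustering the 250 cells separated the lineages further, into 7 clusters that were named by the fixed marker lists (the Leiden method at resolution 1.5). A neutrophil-like cluster held 48 cells (34 Tom- and 14 Tom+), a macrophage-like cluster 42 (23 and 19) and a conventional dendritic-like cluster 29 (18 and 11). The macrophage-like cluster also met the name of scar-associated macrophages. B-like clusters held 42 and 30 cells (72 together, 44 and 28), a T-like cluster 46 (29 and 17) and an NK-like cluster 13 (10 and 3). All 42 macrophage-like cells had been called myeloid-like. Of the 39 unassigned cells, 22 lay in the neutrophil-like cluster and 10 in the dendritic-like cluster; the myeloid list holds 1 granulocyte gene, Csf3r. At resolutions of 0.5 and 1 the T-like and NK-like cells formed 1 cluster of 59. Since the clusters were made from these counts, the genes of a cluster are given as description and not as a test.

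**Figure D2:**
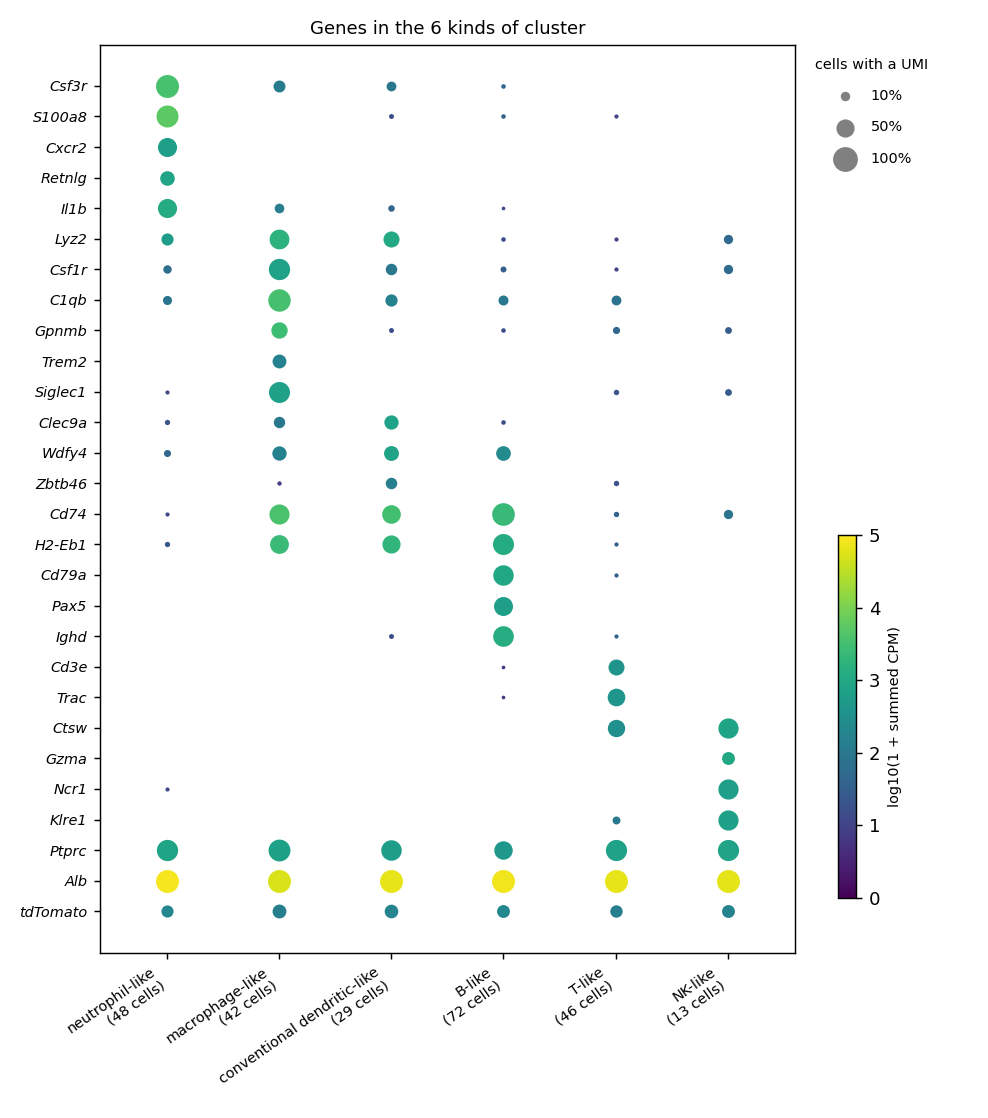
Selected genes (rows) in the 6 kinds of cluster (columns, with the number of cells from both libraries). Dot area gives the percentage of cells with at least 1 UMI and colour gives log10(1 + summed CPM). Genes such as Cxcr2, Pax5 and Ncr1 appear mainly in 1 column. Others, among them Wdfy4, Clec9a, Ctsw and C1qb, also appear outside their own column, and the hepatocyte gene Alb appears in all of them.

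The genes outside the lineage lists with the highest ratios between called lineages were chosen for that ratio and are given as description. In the 87 myeloid-like cells Lrrc25, a leucine-rich membrane protein, gave 59 UMIs in 37 cells, Cd33, an inhibitory sialic acid receptor, 57 in 27, Fcgr3, an antibody receptor, 40 in 31, and Fcgr4, another, 36 in 20, and each of them was at 0 in the cells called T-like, NK-like or B-like. Tifab and Rab3il1 were likewise at 0 there, with 44 UMIs in 21 and 36 in 21 myeloid-like cells. In the B-like cells Pou2af1, a coactivator of antibody genes, gave 70 UMIs in 34 cells against 1 elsewhere, Spib, an Ets factor, 37 in 27 against 1, and Ebf1, an early B cell factor, 28 in 17 against 0. In the T-like cells Cd247, the zeta chain of the receptor complex, gave 22 UMIs in 17 cells against 1, Inpp4b, a lipid phosphatase, 46 in 19 against 12, and the kinase genes Lck and Zap70 36 in 20 against 13 and 27 in 19 against 9.

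The neutrophil-like cells held the genes of mature granulocytes. Csf3r, the receptor for the granulocyte growth factor G-CSF, was detected in all 48 cells with 343 UMIs, 228 of them in Tom- cells (3259 CPM, 2849 to 3710) and 115 in Tom+ cells (4343 CPM, 3586 to 5213). S100a8 and S100a9, subunits of the inflammatory protein calprotectin, gave 526 UMIs in 44 cells and 563 in 43. Cxcr2, the chemokine receptor that brings neutrophils to tissue, gave 61 UMIs in 33 cells and none in any other cluster. Slfn4, an interferon-regulated gene of myeloid cells, gave 255 UMIs in 45 cells, Mmp9, a gelatinase stored in granules, 57 in 25, Padi4, which citrullinates histones, 34 in 17, and Hdc, the histamine-forming enzyme, 33 in 20. Genes of antigen presentation were nearly absent, with 11 UMIs of the 11 genes of the MHC class II list in the 48 cells.

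Il1b, which encodes the inflammatory cytokine interleukin-1 beta, lay mostly in the neutrophil-like cells, with 109 of its 132 UMIs in the members. In the Tom- library 21 of 34 neutrophil-like cells held 47 UMIs (672 CPM, 494 to 893), and in the Tom+ library 12 of 14 cells held 62 (2341 CPM, 1795 to 3002). The level was thus higher in the Tom+ library by more than counting error. The highest Tom+ cell held 17 UMIs and the highest Tom- cell 6. Counting error does not cover the spread between cells, and the levels were not computed without the highest cell. How far the level would vary between libraries of 1 group cannot be seen in this design.

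Late granule genes were found in few of these cells. Camp, Ltf and Ngp encode the antimicrobial peptide cathelicidin, lactoferrin and neutrophilic granule protein, which are made while neutrophils still mature in the marrow. Camp gave 60 UMIs, Ltf 83 and Ngp 102 in the Tom- library, against 0, 0 and 1 in the Tom+ library. Nearly all of them came from 3 Tom- cells, which held 52, 52 and 53 UMIs of Camp, Ltf and Ngp, then 3, 17 and 23, then 5, 14 and 25. The difference between the libraries in these genes was therefore a matter of 3 cells. In mm10 Camp lies at chr9:109847379-109849617, Ltf at chr9:111019271-111042767 and Ngp at chr9:110419747-110423012.

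The macrophage-like cells carried genes of macrophages but, by the rule, few of Kupffer cells. C1qb, a chain of complement C1q, gave 490 UMIs in 40 of the 42 cells, Csf1r, the receptor for macrophage growth factor, 109 in 36, Maf, a macrophage transcription factor, 151 in 36, Axl and Mertk, receptors for dying cells, 140 in 36 and 83 in 29, and Siglec1, the sialic acid receptor CD169, 99 in 35. Ccr2, the receptor by which monocytes leave the marrow, gave 40 UMIs in 15 cells. Timd4, Marco and Folr2, genes of resident macrophages, gave 2, 1 and 1 UMIs. The cluster was deeper than the rest, with a median of 3014.5 UMIs, and 15 of its 42 cells lay within the study's limits.

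Gpnmb and Trem2, which mark macrophages at scars, were present in part of the macrophage-like cells. Gpnmb (mm10, chr6:49036546-49070929) gave 317 UMIs in 12 of 23 Tom- cells and 68 in 9 of 19 Tom+ cells, which is 3665 CPM (3272 to 4091) against 1192 CPM (926 to 1511). A single Tom- cell held 153 of the 317 UMIs. Trem2 gave 24 UMIs in 15 of the 42 cells, whereas Spp1 and Mmp12, of the same list, gave 3 each. For the 8 genes of the list together the median macrophage-like cell went the other way, at 466 CPM (Tom-) and 843 CPM (Tom+), and 5 of 23 and 2 of 19 cells held none. Scar-associated genes were thus uneven from cell to cell and from gene to gene.

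MHC class II genes, which present antigen to CD4 T cells, were read in macrophage-like, dendritic-like and B-like cells. The list used had 11 genes, among them Cd74, the invariant chain, and H2-Eb1, a beta chain. It also held Ciita, Cd80 and Cd86, which are not class II chains. The 11 genes summed to 5988 CPM over the Tom- macrophage-like cells and 11676 CPM over the Tom+ ones. The median cell went the other way, at 3384 CPM (Tom-) and 2665 CPM (Tom+), and the highest Tom+ cell reached 37029 CPM and the highest Tom- cell 26266 CPM. The higher sum in the Tom+ library thus came from the part of the cells with high values and not from the typical one. In the B-like cells every cell held class II UMIs, with medians of 4674 CPM (Tom-) and 5533 CPM (Tom+). In the dendritic-like cluster the medians were 5014 and 3490 CPM over a wide spread. Of its cells, 2 of 18 Tom- and 2 of 11 Tom+ cells held none, and the highest reached 23823 and 23093 CPM. The cluster held genes of several kinds of myeloid cell, so its medians do not describe dendritic cells alone. Of the neutrophil-like cells, 28 of 34 Tom- and 10 of 14 Tom+ cells held none.

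**Figure D3:**
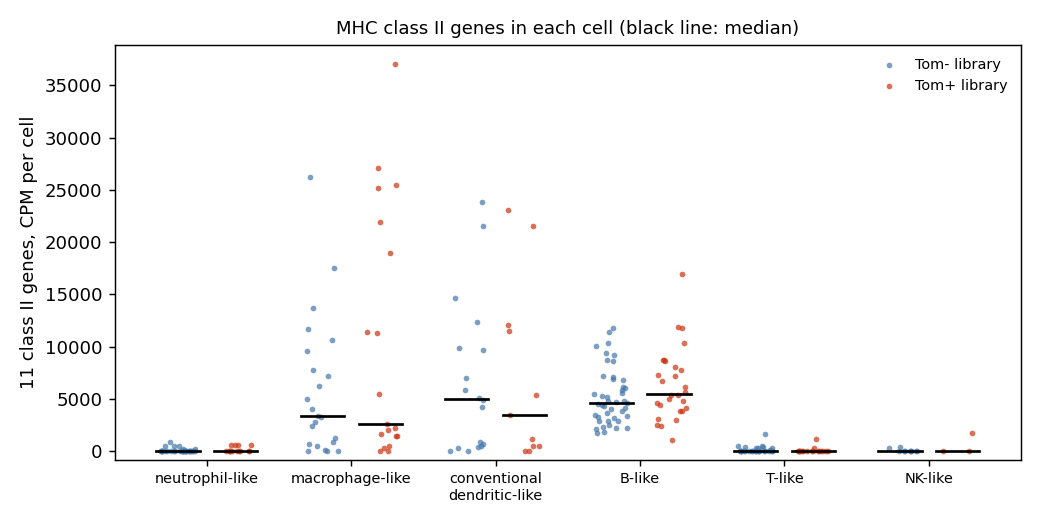
Summed genes of the MHC class II list (11 genes, CPM of each cell, y axis) in the cells of each kind of cluster, by library, with a black line at the median. Macrophage-like and dendritic-like cells spread from 0 to 37029 and 23823 CPM, B-like cells lie in a narrower band above 0, and neutrophil-like, T-like and NK-like cells lie at or near 0.

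The conventional dendritic-like cluster held genes of several kinds of myeloid cell, so its name need not describe every cell in it. Clec9a, a receptor for dead cells on dendritic cells that cross-present antigen, gave 55 UMIs in 11 of 29 cells. Wdfy4, needed for cross-presentation, gave 59 in 12, and Naaa, a lysosomal hydrolase, 33 in 11. Zbtb46, the transcription factor of conventional dendritic cells, gave 10 in 7. In the other 221 members Clec9a gave 19 UMIs in 14 cells, Wdfy4 58 in 49 and Naaa 12 in 12. Xcr1 and Flt3, of the same kind of cell, gave 6 UMIs in 3 cells and 5 in 4. Siglech, of plasmacytoid dendritic cells, gave 16 UMIs in 3 cells, Plac8, a gene of monocytes and plasmacytoid cells, 36 in 18, and Ccr2 19 in 10. Ccl22, made by mature dendritic cells, was at 0 in the cluster.

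The B-like cells carried genes of mature B cells that display their receptor. Among the 70 called cells, Cd79a (mm10, chr7:24897381-24902197) gave 133 UMIs in 57, and Pax5, the transcription factor that fixes B cell identity, 84 in 47. Ighd, the heavy chain of IgD that naive B cells display, gave 182 UMIs in 57 cells against 1 in the other lineages together, and Igkc, the kappa light chain, 169 in 56. Fcer2a, the IgE receptor CD23, gave 62 UMIs in 40 cells and Chst3, a sulfotransferase, 46 in 31. Probes of related immunoglobulin genes can share targets, so the split between them is uncertain.

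The 8 genes of the plasma cell list gave 85 UMIs in 42 of the 70 B-like cells, 70 of them of Pou2af1, which mature B cells also use. Tnfrsf17, Derl3, Eaf2 and Prdm1, the plasma cell transcription factor Blimp-1, were at 0. Irf4, Mzb1 and Jchain, the chain that joins secreted antibodies, gave the remaining UMIs. Mki67, a marker of proliferating cells, was at 0 in the B-like cells. Ccr6 and Cxcr5, which guide B cells to follicles and mucosa, gave 9 UMIs in 8 cells each.

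The T-like cells carried the T cell receptor complex. Among the 39 called cells, Cd3e (mm10, chr9:44998740-45009627) gave 43 UMIs in 21, Trac, the constant region of the receptor's alpha chain, 42 in 24, and Lat, an adaptor of its signalling, 37 in 24. Cd8a gave 14 UMIs in 8 cells and Cd4 6 in 5, so most cells could be placed in neither subset at this depth. Ctsw, a protease of cytotoxic cells, gave 31 UMIs in 24 cells, Ccl5, a chemokine of effector cells, 33 in 11, Gzmb, a granzyme, 21 in 8, and Zfp683, the factor HOBIT of tissue-resident lymphocytes, 33 in 16. Foxp3, of regulatory T cells, was at 0 in the called cells and gave 2 UMIs in 1 other cell of the T-like cluster. That cluster also met the name of CD4 and regulatory T cells, whose 9 genes gave 79 UMIs in 29 of its 46 cells, among them Il2ra, a chain of the interleukin-2 receptor, with 25 in 14, and Icos, a costimulatory receptor, with 11 in 9. Lef1 and Tcf7, of naive T cells, gave 12 UMIs in 8 and 6 in 4 of the 46 cells of the T-like cluster.

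Genes of the cell cycle were read in several clusters. Mki67 gave 14 UMIs in 7 T-like cells and Top2a, a topoisomerase of dividing cells, 13 in 6, while the 13 measured genes of the cell cycle list together gave 103 UMIs in 19 of 46 cells of the T-like cluster, 51 in 9 of 13 of the NK-like cluster, 39 in 14 of 42 macrophage-like cells, 33 in 10 of 29 dendritic-like cells, 19 in 15 of 72 B-like cells and 3 in 3 of 48 neutrophil-like cells. No phase was assigned to any cell. The 10 NK-like cells held Klre1, a lectin-like receptor, with 21 UMIs in 8 cells, Ncr1, the NK receptor NKp46, with 16 in 7, Ctsw with 25 in 8, and Gzma, a granzyme, with 37 UMIs that lay in 4 cells. Mast cell and basophil genes were nearly absent, with 4 UMIs over the whole list of 6 genes in the 250 cells.

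Chemokine receptors were read in different clusters. Cxcr2 and Ccr1 (17 UMIs in 14 cells) were read in the neutrophil-like cells, Ccr2 in the macrophage-like (279 CPM), dendritic-like (258 CPM) and T-like (214 CPM) clusters, and Cxcr3 and Cxcr6, which guide effector T cells into tissue, gave 15 UMIs in 12 cells and 11 in 10 of the T-like cluster. Among the chemokines, Ccl2, Ccl7 and Ccl22 were at 0 in all 250 cells, which allows up to 4.94 CPM in their summed counts. Cxcl16, the ligand of Cxcr6, gave 24 UMIs in 15 macrophage-like cells. The 15 chemokines together gave 282 UMIs, of which Ccl5, a ligand of Ccr1 among others, gave 54 in 20 cells of the T-like and NK-like clusters, and Cxcl12, which stellate and endothelial cells make, 119 in 90 cells of all clusters.

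The genes of the interleukin-6 and LIF family, whose receptors share the chain gp130, were of interest because the study asks how p16Ink4a-positive cells act on fibrosis through this family. Il6 and Il11 were at 0 in the 250 cells, Lif gave 1 UMI, in a T-like cell, and Osm 4 in 4 cells. Clcf1, a cytokine of the same family, gave 19 UMIs in 16 cells, 10 of them in 8 B-like cells. Lifr, the LIF receptor, gave 428 UMIs in 200 members, at 741 CPM (Tom-) and 635 CPM (Tom+), below its level in the other cells within the limits (1130 and 1057 CPM). Lifr was spread over all clusters, as hepatocyte RNA was, and the part of hepatocyte RNA in it was not tested.

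Among cytokines that act on stellate cells or hepatocytes, the macrophage-like cells held most of Pdgfb, a growth factor for stellate cells, with 15 of 20 UMIs, and of Hgf, the hepatocyte growth factor, with 15 of 20. The same cells held 66 of the 120 UMIs of the stellate and fibroblast list, in 14 of 42 cells (460 CPM against 198 over all members), among them Dcn, a matrix proteoglycan, with 20 UMIs in 6 cells, and the part of stellate RNA in these values was not tested. Tgfb1, the main fibrogenic cytokine, gave 55 UMIs in 41 members, 24 of them in 13 macrophage-like cells. Il13, Il17a, Il21, Il22 and Areg were at 0 in all members. Tnf gave 12 UMIs in 9 members.

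Interferon-response genes took a larger share of UMIs in the members than in the cells not taken, which is given as description. The 12 measured genes summed to 2078 CPM (Tom-) and 2213 CPM (Tom+), against 990 and 884 CPM in the other cells within the limits. Macrophage-like cells stood at 3595 (Tom-) and 3839 CPM (Tom+), neutrophil-like cells at 2587 and 3172 CPM, and B-like cells at 1276 and 877 CPM. Irf7, a transcription factor of the response, gave 138 UMIs in 35 of 42 macrophage-like cells.

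The gene that drives the reporter was hardly read in the members. Cdkn2a, which encodes p16Ink4a and p19Arf (mm10, chr4:89274471-89294653), gave 2 UMIs, both in 1 T-like cell of the Tom- library, and a separate p16 probe entry gave 2 UMIs in 2 Tom- cells. In the Tom+ members both were at 0, which allows up to 14.7 CPM. Cdkn2b was at 0 throughout. In the other cells within the limits Cdkn2a stood at 0.402 CPM (Tom-) and 0.530 CPM (Tom+), a level that sums of this size in the members could not resolve.

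Hepatocyte RNA was present in every member. The 9 measured hepatocyte genes, among them Alb (albumin) and Ttr (transthyretin), made up 9.49% of the UMIs of Tom- members and 8.30% of those of Tom+ members, against 14.6% and 13.7% in the other cells within the limits and 15.7% and 15.1% in cells under the study's limits. Per cell the share ran from 3.85% to 16.9% with a median of 9.70%, and no member was without Alb. Macrophage-like cells had 7.04%, B-like cells 10.5% and neutrophil-like cells 11.2%. The 6 genes of the Kupffer cell list, of which the rule capped 3, gave at least 1 UMI in 51.9% (Tom-) and 33.7% (Tom+) of members, beside 56.5% and 44.0% of the deeper other cells within the limits. In CPM the list stood at 224 (Tom-) and 151 (Tom+), beside 77.5 and 52.1, and since the cap is 1 UMI a cell at any depth, neither measure compares the level. Of the members, 98 (39.2%) held the 1 UMI of the Kupffer genes that the rule allowed. Endothelial genes stood at 345 (Tom-) and 205 CPM (Tom+), beside 632 and 594 CPM in the other cells within the limits, and stellate and fibroblast genes at 229 and 137 CPM, beside 342 and 309 CPM. Cholangiocyte genes stood at 22.4 and 9.77 CPM, beside 20.2 and 9.18 CPM, and erythroid and platelet genes at 19.9 and 58.6 CPM, beside 49.8 and 22.8 CPM.

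The reporter was higher in the Tom+ members. The Tom- members held 29 tdTomato UMIs (72.1 CPM, 48.3 to 104) and the Tom+ members 75 (366 CPM, 288 to 459), a log2 ratio of 2.35 (1.71 to 3.02). At least 1 UMI was found in 26 of 158 Tom- members (16.5%) and 51 of 92 Tom+ members (55.4%). With every cell thinned to 1500 UMIs, for which 3 Tom+ members were too shallow, the shares were 8.86% and 42.7%. No member held more than 2 UMIs in the Tom- library or 3 in the Tom+ library, so a UMI of tdTomato does not by itself place a cell as reporter-positive. The sort was made on this reporter, so the direction was set by the design.

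The same ratio in other groups of cells is given as description. In the other cells within the limits tdTomato stood at 113 (Tom-) and 948 CPM (Tom+), a log2 ratio of 3.07, in cells with 10 or more Kupffer UMIs at 111 and 695 CPM (2.64), and in cells under the study's limits at 73.4 and 764 CPM (3.38). The ratio of the Kupffer-marked cells lay inside the members' interval and the others lay above it. Sets drawn anew gave 2.94 with no Kupffer UMI, 2.67 for the 400 highest cells and 3.03 under the study's limits. The first of these kept 152 of the 250 members and the last kept 28. The ratio was 2.16 for the 150 highest cells, 2.22 for the value without Cd52 and 2.37 with at least 3 rule UMIs. Whether the ratio lay below that of the Kupffer-marked cells thus depended on how the set was drawn. By lineage the log2 ratio was 1.83 (0.84 to 2.90) in myeloid-like cells, 2.52 (1.25 to 3.99) in B-like cells and 2.67 (0.67 to 5.19) in T-like cells, so the intervals overlapped. Set against hepatocyte RNA, the Tom- members held 0.760 (0.509 to 1.09) tdTomato UMIs per 1000 UMIs of the hepatocyte list, an interval that contains 0.772 in the other cells within the limits and 0.751 in the Kupffer-marked cells but not 0.468 in cells under the study's limits. The Tom+ members held 4.41 (3.47 to 5.53). That interval contains 4.90 (Kupffer-marked cells) and 5.07 (cells under the study's limits) but not 6.90 (other cells within the limits). The Kupffer-marked cells themselves held 14.8% (Tom-) and 14.2% (Tom+) of their UMIs in the hepatocyte list, more than the members did. The part of free RNA in the members' tdTomato was not tested.

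**Figure D4:**
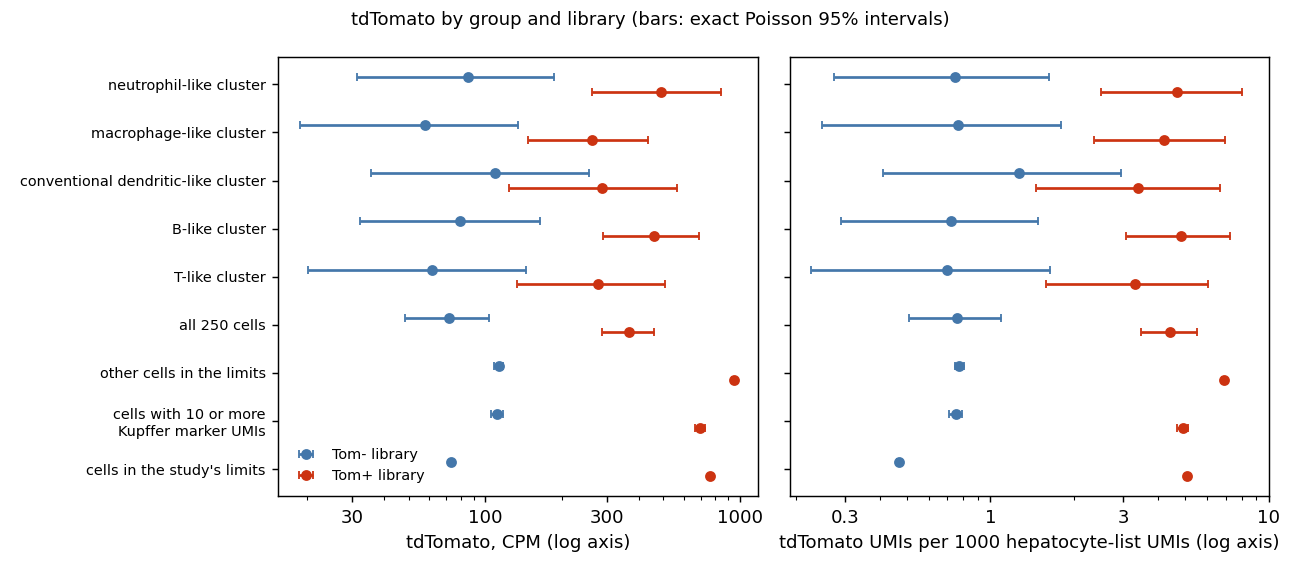
tdTomato in the Tom- (blue) and Tom+ (red) libraries for the larger clusters, all 250 members and 3 groups of other cells, as CPM (left, log axis) and per 1000 UMIs of the hepatocyte list (right, log axis), with exact Poisson 95% intervals. Red lies above blue in every group. Per 1000 hepatocyte UMIs the members lie at 0.760 and 4.41, the Kupffer-marked cells at 0.751 and 4.90, and the other cells within the limits at 0.772 and 6.90.

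Apart from the reporter, the summed counts of Tom+ and Tom- members were compared gene by gene. Fewer cells that express a gene and less of its RNA per cell cannot be told apart in such sums. Of 6434 genes with at least 20 UMIs in all members and at least 20 CPM in either sum, 225 (3.5%) were at least 2-fold higher in the Tom+ members and 181 (2.81%) at least 2-fold lower, with a median log2 ratio of 0.08. Within myeloid-like cells 157 of 2945 genes (5.33%) were higher and 110 (3.74%) lower, and within B-like cells 60 of 1247 (4.81%) and 50 (4.01%). These are counts by size only, since 1 library per group allows no test.

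The genes with the highest ratios were thinly counted, and under the study's limits their log2 ratios lay between -0.011 (Igsf5) and 0.31 (Nsun6). Nsun6, an RNA methyltransferase, and Pcnx each had 5 Tom- and 16 Tom+ UMIs (log2 ratio 2.65, 1.14 to 4.46), Polg2, a subunit of mitochondrial DNA polymerase, 6 and 14 (2.20), Igsf5 7 and 16 (2.17) and Abraxas2, a deubiquitinase subunit, 7 and 15 (2.07). None is a marker of a leukocyte lineage in the lists used here. The lowest ratios were those of Ltf, Camp and Ngp, the granule genes of 3 cells, all 3 with intervals wholly below 0. With no Kupffer UMI allowed 5 UMIs of Camp were left and its interval reached 1.02, under the study's limits it reached 1.03, and in the 150 highest cells 1 UMI of Ngp was left. Slc30a10, a manganese exporter (mm10, chr1:185454848-185468762), followed with 32 UMIs in 26 Tom- cells and 1 in 1 Tom+ cell (-4.03, -9.37 to -1.44), and Hivep1, a zinc finger protein, with 25 in 25 and 1 in 1 (-3.67, -9.03 to -1.06). Under the study's limits the log2 ratio of Hivep1 was -0.17 (-0.95 to 0.54) and that of Slc30a10 -0.86 (-1.41 to -0.37), and with no Kupffer UMI allowed the interval of Hivep1 reached 0.08. Slc30a10 was also lower in the Tom+ library among the other cells within the limits, at 86.4 (Tom-) and 57.2 CPM (Tom+).

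The lists differed in how many of their genes passed 2-fold, which 3.5% (higher) and 2.81% (lower) of all genes did over all members and 5.33% and 3.74% in myeloid-like cells. Of the 9 class II genes counted over all members none passed 2-fold in either direction (median log2 ratio 0.65), and in myeloid-like cells 2 of 6 were higher (0.93), where H2-Eb1 had 188 Tom- and 252 Tom+ UMIs. Of 8 neutrophil genes 4 were lower (median -0.96), namely Camp, Ngp, Cxcr2 and Mmp8, a collagenase, and in myeloid-like cells 5 of 8 were lower (-1.11). These sums go with 34 neutrophil-like cells of 158 in the Tom- and 14 of 92 in the Tom+ library, and 3 Tom- cells hold nearly all of Camp and Ngp. Of 9 genes of the myeloid lineage list 2 were higher (median 0.77), of 8 macrophage genes 2 were higher (0.69), of 6 scar-associated genes 1 was higher and 3 lower (-0.52; in myeloid-like cells 3 of 5 lower, -1.54), of 3 stellate and fibroblast genes 2 were lower (-1.11), of 9 genes of the B list none passed (0.67), of 11 interferon genes none (0.16) and of 9 hepatocyte genes none (-0.20). Siglec1 stood higher in the Tom+ members (log2 ratio 1.51), as did Maf (1.15), beside 19 macrophage-like cells of 92 in the Tom+ and 23 of 158 in the Tom- library. Il1b stood higher as well (1.15), although the neutrophil-like cells that held most of it were 14 of 92 in the Tom+ and 34 of 158 in the Tom- library, and Gpnmb stood lower (-1.29). Without the Tom- cell that held 153 UMIs of Gpnmb its log2 ratio was -0.40 (-0.82 to 0.02). For the scar-associated list the median macrophage-like cell went the other way, at 466 CPM (Tom-) and 843 CPM (Tom+). In that cluster 1 Tom- cell held 203 of the 436 Tom- UMIs of the list. The counts of this list at 2-fold were not computed without that cell.

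**Figure D5:**
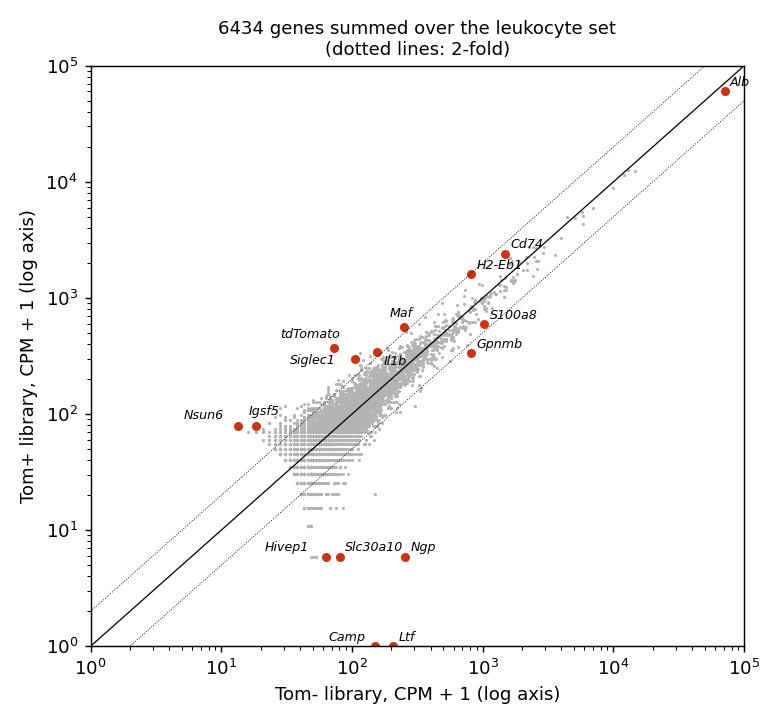
Summed CPM + 1 of 6434 genes in the Tom- members (x axis) and Tom+ members (y axis), both on log axes, with a solid line at equality and dotted lines at 2-fold. Most genes lie between the dotted lines, tdTomato (72.1 and 366 CPM) lies above them, and Ngp, Camp and Ltf, carried by 3 Tom- cells, lie far below.

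The lineage lists also made calls among the cells not taken, 17.4% of them in the Tom- and 10.7% in the Tom+ library. They called 426 Tom- and 163 Tom+ myeloid-like cells among the cells not taken, and 54 and 26 B-like, 13 and 6 T-like and 6 and 2 NK-like cells. The myeloid-like ones had medians of 9965 and 12287 UMIs, far above the members, and 299 and 121 of them held no UMI of the 4 rule genes. Their hepatocyte share was 15.1% and 14.4%, beside 14.5% and 13.7% in the unassigned cells, whose medians were 7099.5 and 8798 UMIs. The B-like calls had medians of 2045.5 and 1754.5 UMIs, near those of the members, and 17 of 54 and 6 of 26 held no UMI of the rule genes. The set of 250 is thus the upper end of a continuous value, taken mostly from cells of low total UMIs.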

How the data were processed

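The single-cell libraries were made by the authors with a probe-based assay for fixed cells (10x Flex) with 3 pairs of custom tdTomato probes, and counted with Cell Ranger 7.2.0 on mm10. The deposited matrices hold raw UMI counts for 19073 features, not normalized. Related genes can share probes, so the counts of different genes do not rank their levels. Libraries were grouped by GEO's labels, 1 per group, and p-values were not computed.

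Members were the 250 cells described in the report, and the members and lists were chosen with earlier results of these data known. Counts were summed per library and group and divided by the group's total (CPM). Shares have exact Clopper-Pearson, CPM exact Poisson and log2 ratios exact conditional 95% intervals, which cover counting error only. A count of 0 allows up to 3 counts of the total. Ratios were ranked with a pseudocount of 0.5 UMIs. Clusters came from 1000 variable genes, 15 principal components and 15 neighbours, and a cluster was named where at least 3 markers of a list were 2-fold higher in it. No doublet caller was run, and cells with equal evidence for more than 1 lineage were kept apart as mixed. Ratio statistics were tested on simulated Poisson counts from pooled rates, which hold no spread between cells, so that test does not cover such spread. Named were the 5 highest and 5 lowest ratios over all members, without tdTomato and hepatocyte genes, the 10 highest genes of each lineage of at least 20 cells, and genes of the lists. Gene positions came from GENCODE for mm10. Python 3.11.15, numpy 2.4.6, scipy 1.17.1, pandas 2.3.3, scanpy 1.11.5, igraph 0.11.9 and matplotlib 3.10.9 were used.

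Alternatives were sets of 150 and 400 cells, no Kupffer UMI, the limits of the study, the value without Cd52, other lineage rules and thinned counts. Sets with at least 3 rule UMIs, or without cells holding Camp, Ltf or Ngp or the most Gpnmb, were added after seeing the data.

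Results for a few genes are not reported here.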

Additional observations from a re-analysis of the deposited data

Results flagged for a closer look

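Barcodes with fewer than 1000 genes lay outside the rule and were used in no comparison. Of 578 such Tom+ barcodes, 68 (11.8%) reached the value of the last member, and of 588 such Tom- barcodes 39 did (6.63%). The Tom+ ones included 19 myeloid-like and 16 B-like calls and the Tom- ones 12 and 7, so a gene limit of 1000 left out cells with leukocyte genes in both libraries. A further 33 Tom+ and 18 Tom- ones were unassigned. All barcodes under the gene limit had medians of 1139 (Tom+) and 1383 UMIs (Tom-). The part of depth in these shares was not tested.

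The probe set also holds an entry for L1Md_A, a young family of LINE-1 retrotransposons, which no list used. All 250 members held it, with 1773 UMIs in the Tom- members (4407 CPM) and 1017 in the Tom+ members (4968 CPM). In the other cells within the limits it stood at 3713 and 4307 CPM. Many copies of the element lie in the genome, and the part of DNA or intronic RNA in these counts was not tested.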

How the results depend on the processing

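No paired analysis was possible because Tom- and Tom+ are 1 library each, and neither could be left out. Of the main results under the alternatives, 103 moved by less than their counting interval or by less than 1.5 times for a count, and 31 moved more. With the limits of the study, which keep 28 of the 250 members, the Tom+ share of the set was 30.8%, T-like calls 3.20%, B-like calls 6.80%, the tdTomato log2 ratio 3.03 and the hepatocyte share 14.2% (Tom-) and 12.99% (Tom+), with 61 genes higher and 63 lower in all members and 196 lower in myeloid-like cells. Myeloid-like calls were 27.2% with at least 3 markers, 45.6% by marker UMIs and 47.6% by cluster, and T-like calls 10.4% with at least 3 markers. The hepatocyte share of Tom- members was 9.28% in the 150 highest cells, 10.1% in the 400 highest, 10.3% without any Kupffer UMI, 9.61% without Cd52 and 10.9% with at least 3 rule UMIs, and that of Tom+ members 8.03% in the 150 highest cells, 8.96% in the 400 highest, 8.86% without any Kupffer UMI and 9.23% with at least 3 rule UMIs. With thinned counts 120 genes were lower in all members, 75 higher and 43 lower in myeloid-like cells, and 36 higher in B-like cells. With 150 cells 99 genes were higher and 60 lower in myeloid-like cells, and with 400 cells 167 were lower in myeloid-like and 141 higher and 115 lower in B-like cells. Under the limits of the study the log2 ratio of Igsf5 was -0.011, Abraxas2 0.04, Pcnx 0.04, Polg2 0.20, Nsun6 0.31, Hivep1 -0.17 and Slc30a10 -0.86, and that of Gpnmb was -0.40 without the cell with the most of its UMIs. The causes were not tested. Ratios in B-like cells were not computed with 150 cells, under the limits of the study or without cells above the median hepatocyte share, which left fewer than 20 B-like cells in at least 1 library. The median member held 4 rule UMIs. Unassigned members had a median of 1923 UMIs in all and B-like members 1831. The part of depth in membership and in lineage calls was not tested.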

Other observations

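Immediate early genes, which cells switch on within minutes of a stimulus, gave the most UMIs in the macrophage-like and neutrophil-like clusters. The liver had been fixed before it was dissociated. The 10 genes gave 251 UMIs in 37 of 42 macrophage-like cells and 198 in 42 of 48 neutrophil-like cells, against 102 in 50 of 72 B-like cells and 79 in 39 of 46 of the T-like cluster. Dusp1, a phosphatase, and Zfp36, an mRNA-destabilising protein, gave 84 and 58 UMIs in the neutrophil-like cells and 80 and 82 in the macrophage-like cells. Fos gave 14 UMIs in 10 neutrophil-like and 22 in 9 macrophage-like cells and none in the T-like cluster.

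Cell cycle inhibitors other than p16Ink4a were read at low levels in all lineages. Cdkn1a, which encodes p21, gave 20 UMIs in 12 macrophage-like cells and 8 in 8 neutrophil-like cells, and Cdkn1b, which encodes p27, 19 in 14 and 12 in 12. In the T-like cluster Cdkn1b gave 21 UMIs in 16 of 46 cells.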
